A study of Mus musculus with 12 samples.

Results

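Ebi3, Il12a, Fgl2, Ecm1, Lgals1, Entpd1 and Nt5e encode molecules through which regulatory T cells (Tregs) can hold back other immune cells. These 7 genes were matched by symbol to the probe sets of a mouse expression array, and each gene was read from the brightest probe set that named it and no other gene. They are 7 of 16426 genes measured in this way. Tests were run on the 8918 genes that exceeded the median intensity of the same array on 2 or more of the 12, and these include 6 of the 7. Il12a lay below the median on all 12 arrays and was described only.

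The arrays, Affymetrix Mouse Gene ST 1.0, carry short oligonucleotides along each transcript, and the study, a scanning mutagenesis of Foxp3, compared the wild-type (WT) form of this transcription factor with the forms called M354 and M176. Splenic Tregs, sorted in 2 rounds as live CD4+ cells with high CD25, came from mice of the genotypes Foxp3(WT/WT), Foxp3(M354/M354) and Foxp3(M176/M176). Conventional CD4+ T cells of WT mice received WT, M354 or M176 Foxp3 from a retrovirus in vitro, and cells with high Thy1.1 were sorted, so that these cells kept their own WT Foxp3 gene beside the transduced form. All mice were male C57Bl/6 aged 6 weeks, and the design text calls them treated without naming a treatment. There were 2 arrays in each of the 6 groups and no group transduced without Foxp3. Which amino acids M354 and M176 change is not given in the sources used here. The labels do not say whether both arrays of a group stand for separate mice or cultures. A p-value here weighs a difference against the spread between arrays of the same group, which could be technical repeats. That spread was pooled over the 6 groups and drawn towards the spread of all tested genes.

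Tregs restrain immunity partly with secreted proteins and partly with enzymes on their surface. Ebi3 pairs with the Il12a chain (p35) to form the cytokine IL-35, and with the Il27 chain (p28) to form IL-27. Fgl2 is a fibrinogen-like protein that inhibits T cells and antigen-presenting cells, Ecm1 is a secreted glycoprotein of the extracellular matrix, and Lgals1 encodes galectin-1, a lectin that binds glycans on activated T cells. Entpd1 (CD39) breaks down extracellular ATP and ADP to AMP, and Nt5e (CD73) turns AMP into adenosine, which signals through receptors on effector T cells and dampens them. Foxp3 defines the Treg lineage, and these molecules are also made by other cells, among them activated conventional T cells.

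Start regions from RefSeq (GRCm38.p6) were used for 6 of the 7 genes, and that of Lgals1 was not analysed here. The 100 bases before the start site are shown for the 5 genes that differed between M354 and M176 Tregs, read 5′ to 3′ on the strand of the gene, with motif matches in capitals. They lie at chr17:55952523-55952622 (Ebi3, plus strand), chr5:21372573-21372672 (Fgl2, plus), chr3:95739570-95739669 (Ecm1, minus), chr19:40612266-40612365 (Entpd1, plus, the first of 2 start sites) and chr9:88327509-88327608 (Nt5e, plus). The Ecm1 window lies inside the annotated gene, which spans chr3:95734147-95739876, and the other 4 end at the base before it.
Ebi3: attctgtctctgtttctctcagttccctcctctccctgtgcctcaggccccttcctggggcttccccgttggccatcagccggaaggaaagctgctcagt
Fgl2: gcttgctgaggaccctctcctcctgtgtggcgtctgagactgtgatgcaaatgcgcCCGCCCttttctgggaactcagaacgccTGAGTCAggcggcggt
Ecm1: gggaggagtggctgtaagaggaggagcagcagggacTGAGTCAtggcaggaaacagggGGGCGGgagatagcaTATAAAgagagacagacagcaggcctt
Entpd1: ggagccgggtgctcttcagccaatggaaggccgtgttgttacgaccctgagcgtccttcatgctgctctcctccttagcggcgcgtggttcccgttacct
Nt5e: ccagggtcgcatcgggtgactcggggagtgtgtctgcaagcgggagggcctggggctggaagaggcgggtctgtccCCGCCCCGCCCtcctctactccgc

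The search covered 250 bases before to 50 bases after each start site, on both strands, and took 4 motifs. The forkhead motif was TGTTTAC and the AP-1 motif TGANTCA. The GC box was searched as GGGCGG and the TATA box as TATAAA. An AP-1 match stood in the windows of Fgl2, beginning 16 bases before the start, and Ecm1, beginning 64 bases before it, and in 7.81% of all 32851 windows of 27025 genes. The forkhead letters, which 3.65% of all windows hold, were found in none of the genes' windows. GC boxes stood in the windows of Fgl2, Ecm1 and Nt5e, the last with 4 matches of which those shown overlap by 1 base, and in that of the other Il12a start, against 35.66% of all windows. Ecm1 held a TATA box at 27 bases before its start, as did 13.62% of all windows at some position. The upstream bases were 59% G or C for Ebi3, 61% for Fgl2 and Entpd1, 57% for Ecm1 and 72% for Nt5e. These matches describe letters in a window and were not set against binding data.

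The median intensity per array lay between 101.5 and 117.4, on a linear scale, and arrays of one group correlated at 0.984 to 0.992 over the tested genes. Foxp3 measured 5327 to 5991 on the WT and M354 Treg arrays and 5233 to 6163 on the transduced arrays, but 3442 and 3321 on the M176 Treg arrays, where it fell by 0.73 against WT on the log2 scale (limma adjusted p = 0.000554). The 6 CD4 T cell markers and 6 Treg markers on the table were above the array median on all 12 arrays, whereas the summed intensity of 9 myeloid markers stayed between 518.3 and 628.7. The summed intensity of 13 B cell markers was 5014 on the array of WT Treg replicate 2 and 2212 to 2635 on the other Treg arrays. The transduced cells had sums of 4405 to 4930, and over 9 CD8 T and NK cell markers 4405 to 6075 against 1658 to 3298 in Tregs. The mean log2 level of 36 small nucleolar RNA (snoRNA) genes was 9.98 and 10.04 on the M176 Treg arrays, 8.66 to 8.87 on the other Treg arrays and 8.61 to 9.64 on the transduced arrays. In Tregs this level ran with the M176 form. A fit that takes this level as a covariate estimates its slope from differences between the 2 arrays of each group. Those were largest in the transduced groups, up to 9.64 against 8.75 with M354 Foxp3. The fit carries that slope over to Tregs, where arrays of a group differed little. A call lost in it does not tell whether this level or the M176 form carried the difference. The summed intensity of the 6 Treg markers was 26600 and 25201 in WT, 22434 and 22823 in M354 and 17981 and 17839 in M176 Tregs. In transduced cells it was 25352 and 26187 with WT, 17995 and 19635 with M354 and 21481 and 21387 with M176 Foxp3. Of these 6 markers 5 fell in M176 against WT Tregs at a limma adjusted p under 0.05 (median log2 -0.52). There 11.3% of all 8918 tested genes fell (median -0.04). In M354 against WT Tregs 1 fell (-0.19), beside 0.919% of all genes (-0.04). In M354- against WT-transduced cells 3 fell (-0.54), beside 0.976% of all genes (0.01). The sum of the CD8 T and NK cell markers was 3298 and 2831 in M354 Tregs against 2073 and 1900 in WT Tregs. Nkg7 carried that gap (2466 and 2031 against 1184 and 1039). On these 4 arrays Cd8a was under the medians and Cd8b1 above them. Cd8b1 was at 455.3 and 467.3 in M354 and 510.7 and 481.7 in WT Tregs. The part of these marker and snoRNA levels in the differences reported here was not tested.

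**Figure D1:**
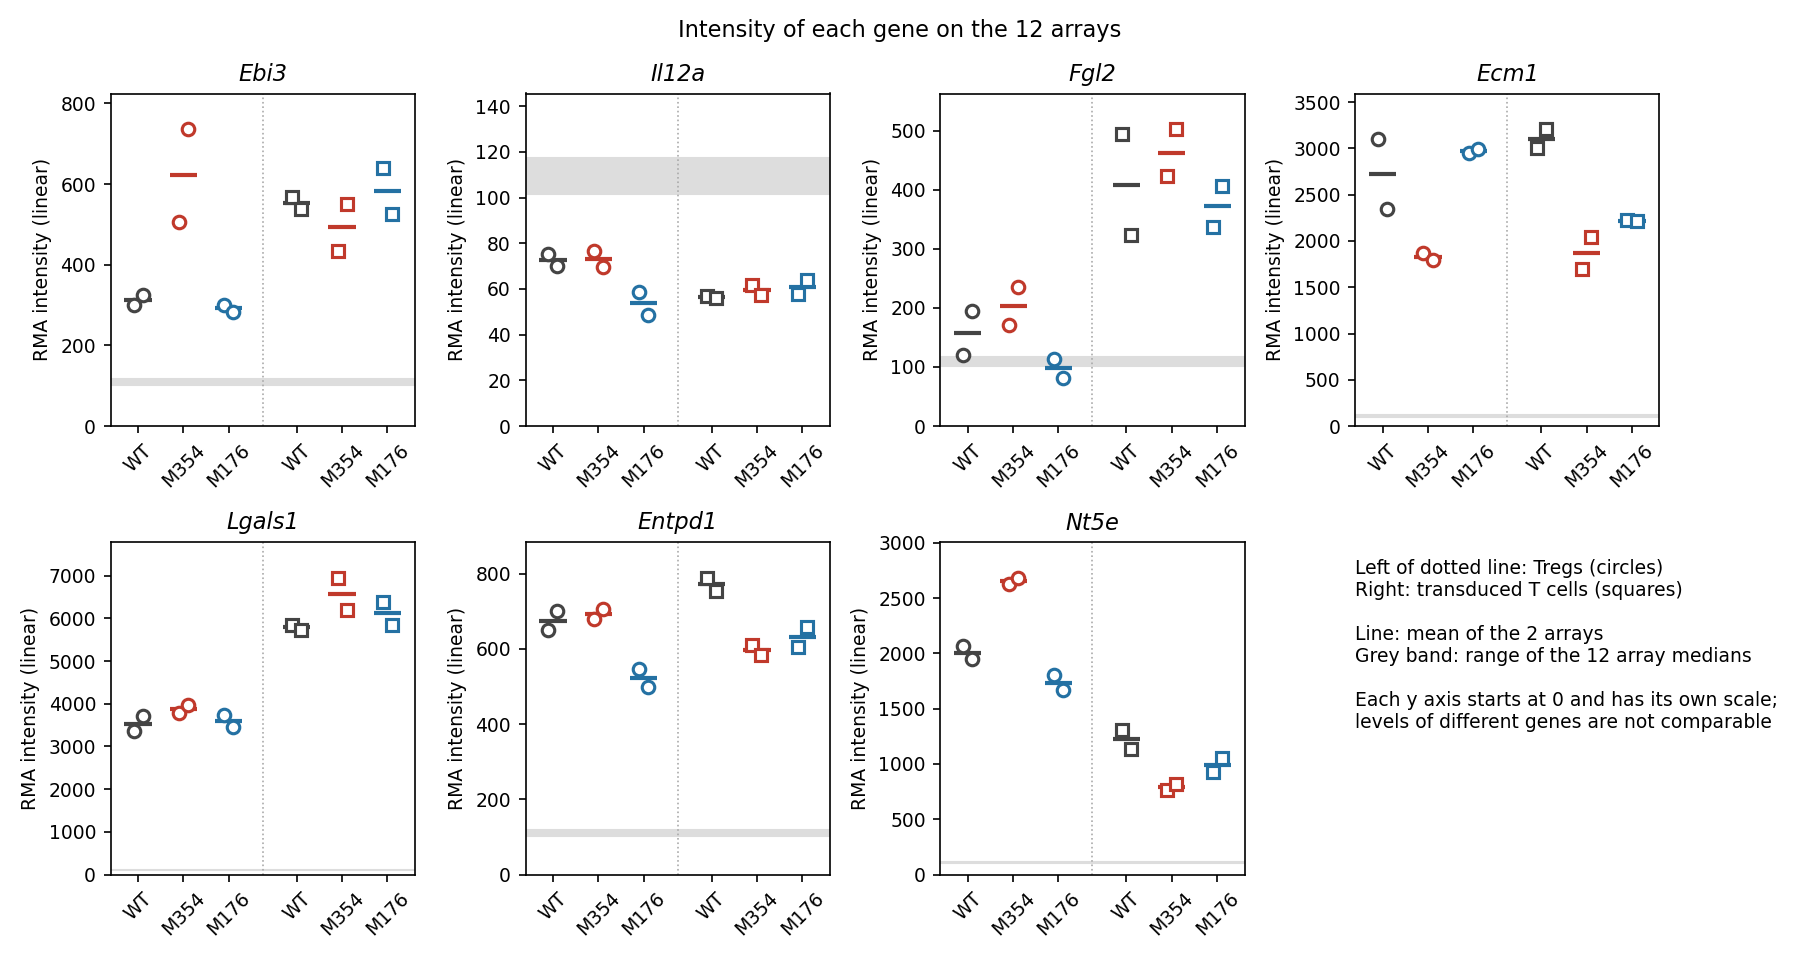
RMA intensity (linear, y axis from 0, with its own scale in each panel) of the 7 genes on the 12 arrays, by Foxp3 form, with Tregs as circles left of the dotted line and transduced T cells as squares to its right. Bars are the means of 2 arrays and the grey band spans the 12 array medians. Among Tregs, Ebi3 is highest with M354, at 506.4 and 736.1, which overlaps the transduced groups. Nt5e in M354 Tregs, at 2629 and 2686, lies above all other groups, and all Il12a points lie under the band.

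Ebi3, the chain that IL-35 and IL-27 share, was higher in M354 than in WT and M176 Tregs. It measured 300.3 and 323.8 on the WT Treg arrays, 506.4 and 736.1 on the M354 Treg arrays and 301.1 and 282.9 on the M176 Treg arrays. Both M354 arrays lay above every other Treg array, though they also lay furthest apart from each other, while WT and M176 Tregs overlapped. With 2 arrays a group, such separation easily arises by chance. Its share among all genes was not counted, so here and below it only describes the values. In the transduced cells it measured 568.4 and 538.9 with WT, 433.3 and 551.4 with M354 and 639.4 and 526.1 with M176 Foxp3, and these groups overlapped. Ebi3 rose 1.96-fold in M354 over WT Tregs, a log2 difference of 0.97 with a standard error (SE) of 0.17. Its limma p, adjusted for all 8918 genes by Benjamini-Hochberg, was 0.0043, and a gene is called changed here where that value is under 0.05. Without M354 Treg replicate 2 the difference was 0.70 and was not called (adjusted p = 0.0755), and without WT Treg replicate 2 it was 1.02 (adjusted p = 0.0175). In bulk RNA a change in the share of cells that make a transcript and a change in its amount per cell cannot be told apart.

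Against M176 Tregs, Ebi3 was 2.09-fold higher in M354 Tregs (log2 1.06, SE 0.17, adjusted p = 0.000207), and M176 and WT Tregs differed by -0.10 (SE 0.17, adjusted p = 0.709). The call between the mutants was lost with the snoRNA level as a covariate (log2 0.68, adjusted p = 0.15). By mean intensity M354 Tregs came first at 621.2 ± 162 (SD, n = 2), followed by the M176-, WT- and M354-transduced cells at 582.7 ± 80.1, 553.6 ± 20.9 and 492.3 ± 83.5. These neighbours overlapped, and a gap separated them from WT Tregs at 312.1 ± 16.6 and M176 Tregs at 292.0 ± 12.8.

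Il12a, the partner chain in IL-35, was dim throughout. It measured 75.4 and 70.2 in WT Tregs, 76.9 and 69.7 in M354 Tregs and 58.8 and 48.5 in M176 Tregs. It measured 56.8 and 56.0 with WT, 61.7 and 57.2 with M354 and 57.8 and 64.1 with M176 Foxp3 in transduced cells. Every value was under the median of its array, so no order of the groups is read from them.

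Fgl2 was low in Tregs and high in transduced cells, and within Tregs it was lowest with M176. It measured 120.8 and 194.5 in WT Tregs, 170.7 and 234.6 in M354 Tregs and 114.0 and 82.0 in M176 Tregs. The M176 arrays lay below all other Treg arrays, the lower one under the median of its array, and WT and M354 overlapped. In transduced cells it measured 494.3 and 323.0 with WT, 422.6 and 502.4 with M354 and 337.6 and 405.9 with M176 Foxp3, where WT overlapped with both mutants. Fgl2 was 2.07-fold higher in M354 than in M176 Tregs (log2 1.05, SE 0.24, adjusted p = 0.00309), a call lost with the snoRNA level as a covariate (0.80, adjusted p = 0.257). In M176 against WT Tregs it fell by 0.66 (SE 0.24, adjusted p = 0.0486), at the edge of the threshold, and this call was lost in 11 of 21 alternative settings.

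That fall of Fgl2 was not called without WT Treg replicate 2 (log2 -0.32, adjusted p = 0.398), M176 Treg replicate 2 (-0.43, adjusted p = 0.32) or M176 Treg replicate 1 (-0.90, adjusted p = 0.0513). It was also not called without either M354 Treg array (adjusted p = 0.0522) or either M176-transduced array (adjusted p = 0.0576), which enter the shared estimate of the spread. Quantile normalization gave -0.63 (adjusted p = 0.0634), testing all genes without the filter an adjusted p of 0.0601 and the snoRNA covariate 0.605. The 0.39 between M354 and WT Tregs was not called (SE 0.24, adjusted p = 0.623). All 3 transduced means, 462.5 ± 56.4, 408.7 ± 121 and 371.8 ± 48.3 with M354, WT and M176 (SD, n = 2 each), stood above the Treg means of 202.7 ± 45.2, 157.6 ± 52.1 and 98.03 ± 22.6 in the same order of forms.

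Ecm1 was low with M354 Foxp3 in both kinds of cell. It measured 3101 and 2350 in WT Tregs, 1874 and 1789 in M354 Tregs and 2947 and 2994 in M176 Tregs, so that both M354 arrays lay under all other Treg arrays. In transduced cells it measured 3002 and 3209 with WT, 1698 and 2045 with M354 and 2225 and 2212 with M176 Foxp3, and no 2 of these groups overlapped. Ecm1 fell by 0.74 in M354- against WT-transduced cells (SE 0.14, adjusted p = 0.0135), or 1.67-fold. That call was lost without WT-transduced replicate 2 (-0.69, adjusted p = 0.0959) or M354-transduced replicate 1 (-0.60, adjusted p = 0.248).

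In Tregs, Ecm1 was 1.62-fold lower with M354 than with M176 (log2 -0.70, SE 0.14, adjusted p = 0.00171), the one member whose call between the mutants was kept in all 21 alternative settings. The difference between M354 and WT Tregs, -0.56 (SE 0.14), missed the threshold at an adjusted p of 0.0566. It was -0.76 without WT Treg replicate 2, the array with the B cell transcripts, and was then called (adjusted p = 0.0232), but -0.36 without WT Treg replicate 1 (adjusted p = 0.429). M176-transduced cells differed from WT-transduced cells by -0.48, which was not called (SE 0.14, adjusted p = 0.309). The means ran from 3105 ± 147 in WT-transduced cells through 2970.5 ± 33.1 in M176 Tregs, 2726 ± 531 in WT Tregs and 2219 ± 9.02 in M176-transduced cells to 1872 ± 246 and 1832 ± 59.9 in the M354-transduced cells and M354 Tregs (SD, n = 2 each). WT and M176 Tregs overlapped in that order, as did both M354 groups.

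Lgals1 differed between the kinds of cell and was not called between the forms of Foxp3. It measured 3358 and 3703 in WT Tregs, 3778 and 3980 in M354 Tregs and 3730 and 3449 in M176 Tregs. It measured 5853 and 5732 with WT, 6954 and 6200 with M354 and 6389 and 5846 with M176 Foxp3 in transduced cells, so that every transduced array exceeded every Treg array. The M354 arrays lay above those of WT in both kinds of cell and above those of M176 in Tregs. The differences between forms of Foxp3 lay between 0.02 and 0.18 on the log2 scale in the 6 comparisons within a kind of cell, each with an SE of 0.13, and 0 of these were called. With quantile normalization, which forces the arrays to one distribution, Lgals1 turned to -0.35 in M176 against WT Tregs (adjusted p = 0.0404) and was 0.50 in M354 against M176 Tregs (adjusted p = 0.00511).

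Entpd1, the first enzyme on the way from ATP to adenosine, was lowest in M176 Tregs. It measured 650.2 and 700.7 in WT Tregs, 680.9 and 707.1 in M354 Tregs and 545.4 and 498.4 in M176 Tregs, where both arrays lay under the other Tregs. In transduced cells it measured 789.8 and 753.5 with WT, 610.6 and 583.6 with M354 and 606.0 and 657.9 with M176 Foxp3, and both mutants lay under WT. In M176 against WT Tregs it fell by 0.37 (SE 0.12, adjusted p = 0.0359), a 1.29-fold difference. Against M354 it was 1.33-fold lower in M176 Tregs, given as a log2 difference of M354 over M176 of 0.41 (SE 0.12, adjusted p = 0.0181).

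Neither call of Entpd1 was kept when an array of the compared groups was left out. For M176 against WT the adjusted p was 0.0769 without WT Treg replicate 1, 0.182 without WT replicate 2, and 0.092 and 0.201 without M176 replicates 1 and 2. For the mutants it was 0.0597 and 0.0635 without the M354 Treg arrays, 0.053 and 0.13 without the M176 Treg arrays, and the snoRNA covariate gave 0.161. The call against WT was also lost with that covariate (adjusted p = 0.232). The differences of -0.37 for M354 and -0.29 for M176 against WT in transduced cells were not called (SE 0.12 each, adjusted p = 0.194 and 0.777). By mean intensity WT-transduced cells came first at 771.6 ± 25.7 and M176 Tregs last at 521.9 ± 33.3 (SD, n = 2 each), and the 4 groups between them, from 694.0 ± 18.5 to 597.1 ± 19.1, overlapped from neighbour to neighbour.

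Nt5e, the enzyme that forms adenosine, was high in Tregs, and the M354 arrays lay above WT in Tregs and below WT in transduced cells. It measured 2066 and 1948 in WT Tregs, 2629 and 2686 in M354 Tregs and 1803 and 1668 in M176 Tregs. In transduced cells it measured 1310 and 1135 with WT, 762.9 and 822.6 with M354 and 924.7 and 1057 with M176 Foxp3. No 2 of the 6 groups overlapped. In M354- against WT-transduced cells Nt5e fell by 0.62 (SE 0.13, adjusted p = 0.0193). The call was lost without WT-transduced replicate 1 (log2 -0.52, adjusted p = 0.118), M354-transduced replicate 1 (-0.57, adjusted p = 0.248) or M354-transduced replicate 2 (-0.68, adjusted p = 0.0637), and with the transduced arrays fitted alone (adjusted p = 0.0582).

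Between M354 and M176 Tregs Nt5e was 1.53-fold higher with M354 (log2 0.62, SE 0.13, adjusted p = 0.00199), a call lost with the snoRNA level as a covariate (0.52, adjusted p = 0.169). The 0.41 between M354 and WT Tregs, whose arrays did not overlap, was not called (SE 0.13, adjusted p = 0.151). With quantile normalization it was 0.47 and was called (adjusted p = 0.0396), as it was with cyclic loess normalization (0.47, adjusted p = 0.0436). The order of the means was M354 Tregs at 2657 ± 40.5, WT Tregs at 2007 ± 83.4, M176 Tregs at 1735 ± 96.0, then WT-, M176- and M354-transduced cells at 1222 ± 123, 990.7 ± 93.4 and 792.8 ± 42.2 (SD, n = 2 each).

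**Figure D2:**
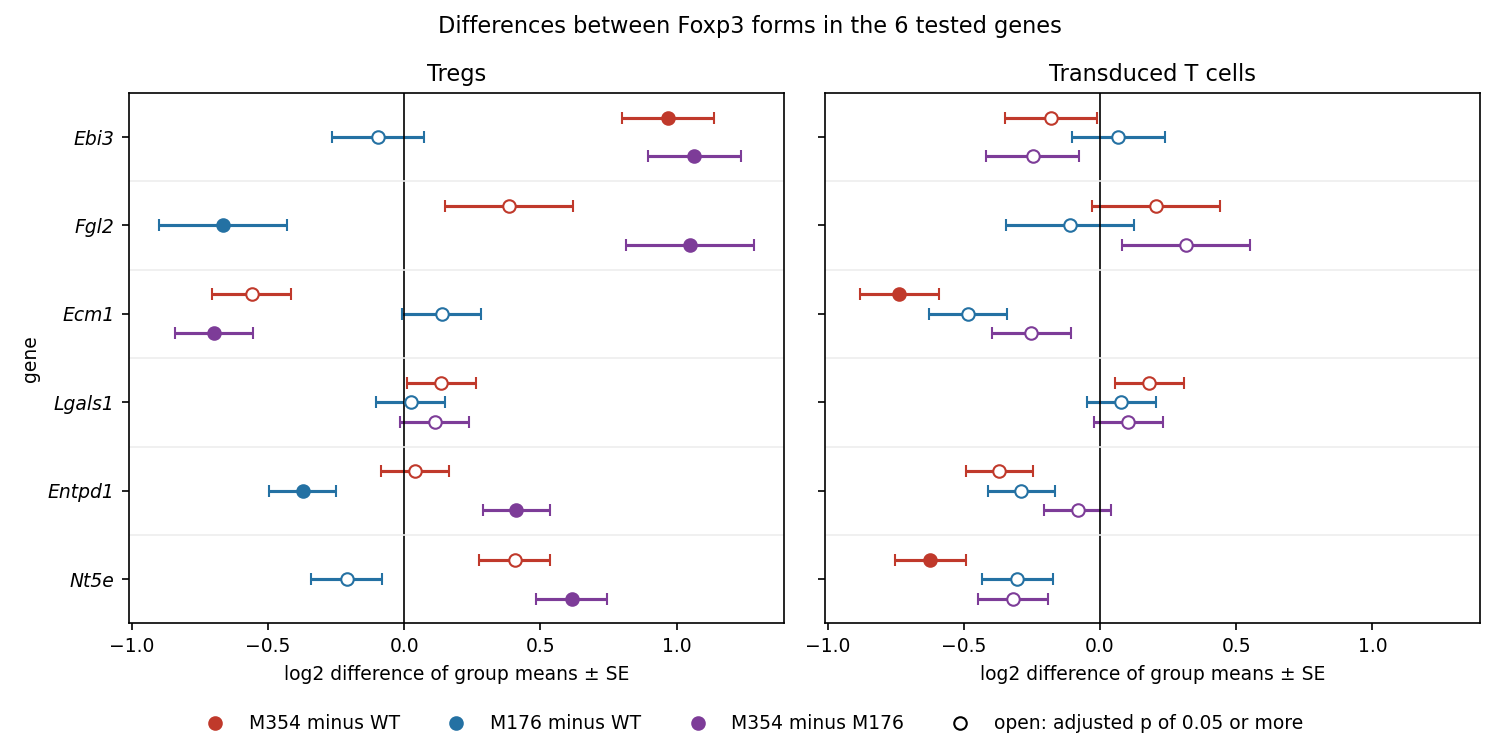
Log2 differences between forms of Foxp3 (x axis, points with SE bars, n = 2 arrays per group) for the 6 tested genes in Tregs (left) and transduced T cells (right), with filled points for an adjusted p under 0.05. Ebi3 and Nt5e lie right of 0 for M354 in Tregs (0.97 and 0.41) and left of 0 in transduced cells (-0.18 and -0.62), and Ecm1 lies left of 0 in both (-0.56 and -0.74).

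The members were chosen with earlier results of these data known, so their counts and medians are descriptions beside all genes and not tests. In counts, M354 against WT in Tregs had 1 of the 6 tested members higher, Ebi3, and 0 lower. Over all 8918 genes 0.886% were called higher and 0.919% lower, a split of 79 and 82 genes that was 141 and 80 with cyclic loess normalization. The median log2 difference of the 6 members was 0.26 and that of all genes -0.04, but the former was 0.05 without WT Treg replicate 1 and 0.13 without M354 Treg replicate 2. Without M354 Treg replicate 2 the member count was 0, and without WT Treg replicate 2 or either WT-transduced array it was 2, Ebi3 and Ecm1.

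M176 against WT in Tregs had 0 members higher and 2 lower, Fgl2 and Entpd1. In this comparison 13.4% of all genes were called higher and 11.3% lower, 1196 and 1011 genes, or 1125 and 1451 with quantile normalization, so that calls were common among all genes too. The median was -0.15 for the members and -0.04 for all genes. The count was 0 without WT Treg replicate 2, without either M176 Treg array and when the snoRNA level was a covariate. It was 1 without WT Treg replicate 1, either M354 Treg array or either M176-transduced array.

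M354 against M176 in Tregs had the most calls among the members, 4 higher with M354 (Ebi3, Fgl2, Entpd1 and Nt5e) and 1 lower (Ecm1). Of all genes 12.7% were called higher and 18.1% lower, 1129 and 1618, or 1585 and 1442 with quantile normalization. The members had a median of 0.51 and all genes of -0.02. With the snoRNA level as a covariate 1 member was called, Ecm1, at -0.91 (adjusted p = 0.0415), and the median of all genes moved to -0.14. The 3 comparisons of Tregs share their arrays and are not separate evidence, and the same holds for those of transduced cells.

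In transduced cells M354 against WT had 0 members higher and 2 lower, Ecm1 and Nt5e, against 0.359% of all genes higher and 0.976% lower. The median was -0.27 for the members and 0.01 for all genes. Without M354-transduced replicate 1 the count was 0, and it was 1 without either WT-transduced array, without M354-transduced replicate 2 and with the transduced arrays fitted alone. For M176 against WT the count was 0 in either direction, with 0.0112% of all genes higher and 0.505% lower, and medians of -0.20 and -0.01, the former -0.05 without WT-transduced replicate 1 and -0.36 without WT-transduced replicate 2. For M354 against M176 it was also 0, with 0.0561% higher and 0.0224% lower (5 and 2 genes, or 0 and 1 with quantile normalization), and medians of -0.16 and 0.02, the former -0.09 without M354-transduced replicate 1. At an unadjusted limma p under 0.05 the members numbered 3 for M176 against WT (Ecm1, Entpd1 and Nt5e) and 1 for M354 against M176 (Nt5e), where all tested genes numbered 527 and 462 of 8918.

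The effect of M354 differed between Tregs and transduced cells for Ebi3 and Nt5e, tested as the difference of both log2 differences. For Ebi3 the effect was 0.97 in Tregs and -0.18 in transduced cells, a difference of 1.15 (SE 0.24, adjusted p = 0.0239). For Nt5e it was 0.41 and -0.62, a difference of 1.03 (SE 0.18, adjusted p = 0.00712). Over all genes 0.830% were called with a higher effect of M354 in Tregs and 0.247% with a lower one, and the median was -0.07 against 0.29 for the members. The call of Nt5e was kept in all 20 alternative settings that could be fitted, with adjusted p up to 0.0468. That of Ebi3 did not hold when WT Treg replicate 1 (adjusted p = 0.0711), M354 Treg replicate 2 (0.0979), WT-transduced replicate 1 (0.0529) or M354-transduced replicate 1 (0.151) was left out.

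The other 4 tested members had no called difference between the kinds of cell in the effect of M354. That of Entpd1 was 0.41 (SE 0.17, adjusted p = 0.548), with 0.04 in Tregs and -0.37 in transduced cells, and that of Ecm1 was 0.18 (SE 0.20, adjusted p = 0.868). The effect of M176 had 0 members called in either direction, against 4.01% of all genes higher and 1.46% lower, 358 and 130 genes, or 320 and 220 with quantile normalization. At an unadjusted limma p under 0.05 there was 1 of 6 members, Ecm1, and 1870 of all 8918 genes, so that the members' share was not above that of all genes. The medians were -0.07 for the members, between -0.13 and -0.01 with an array left out, and -0.02 for all genes. Ecm1 came closest, with 0.14 in Tregs and -0.48 in transduced cells, a difference of 0.62 (SE 0.20, adjusted p = 0.0851). Without WT Treg replicate 1 it was 0.82 and was called (adjusted p = 0.0394), and without WT Treg replicate 2 it was 0.42 (adjusted p = 0.284).

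WT Tregs and WT-transduced cells, which differ in origin, culture and sorting as well as in the source of Foxp3, were compared last. Nt5e was 1.65-fold higher in WT Tregs (log2 0.72, SE 0.13, adjusted p = 0.0005). Fgl2 was 2.61-fold lower there (log2 -1.38, SE 0.24, adjusted p = 0.000285), Ebi3 1.77-fold lower (-0.83, SE 0.17, adjusted p = 0.00149) and Lgals1 1.64-fold lower (-0.72, SE 0.13, adjusted p = 0.000403). Entpd1 at -0.19 and Ecm1 at -0.20 were not called (SE 0.12 and 0.14, adjusted p = 0.252 and 0.31). That makes 1 member higher and 3 lower, where 10.9% of all genes were called higher and 19.4% lower, 968 and 1727 genes. The split was 1302 and 1306 with quantile normalization, which moved the median of all genes from -0.08 to 0.03, and the 4 member calls were kept in all 20 alternatives. Beside these calls, the summed CD8 T and NK cell markers were 2073 and 1900 on the WT Treg arrays and 5282 and 4405 on the WT-transduced arrays, and Cd8a was 106.4 and 82.1 against 448.5 and 370.8. The part of such cells in the levels was not tested.

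Genes that act with the members were taken from 5 lists, chosen with earlier results of these data known. Their counts stand beside the shares of all genes given above for each comparison, such as 13.4% higher and 11.3% lower in M176 against WT Tregs. Because of that choice, a count above such a share is a description and not a test. The IL-12 family list, with the other cytokine chains, their receptors and kinases, held 15 genes, of which 11 were measured and 10 tested. In M176 against WT Tregs 5 fell and 0 rose, with a median of -0.37. Il12rb1, the receptor chain that IL-12 and IL-23 share, fell by 0.63 (SE 0.13, adjusted p = 0.0018), from 459.1 ± 28.7 to 295.9 ± 2.77 (SD, n = 2 each), in a call that was kept with any array left out but not with the snoRNA covariate (adjusted p = 0.138). Il27, the chain that joins Ebi3 in IL-27, fell by 0.48 and the receptor chains Il6ra and Il6st (gp130) by 0.46 and 0.42, calls that were lost without either WT Treg array and with the snoRNA covariate. In M354 against M176 Tregs 2 genes were higher and 0 lower, Il12rb1 by 0.63 and Il27 by 0.50, both lost with the snoRNA covariate (adjusted p = 0.122 and 0.0538). In M354 against WT Tregs 1 gene fell, Il6ra by 0.62 (adjusted p = 0.0233, and up to 0.221 with an array left out).

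The transduced groups showed 0 of the 10 called between forms of Foxp3. Between the kinds of cell Il12rb2, the inducible chain of the IL-12 receptor, stood apart. It was at 47.4 ± 2.59 in WT Tregs, under the array medians, and at 1264 ± 167 in WT-transduced cells (SD, n = 2 each), and no size is read from a level that low. Il6st was higher in WT Tregs by 0.98 and Il6ra by 0.64, while Il12rb1 differed by -0.72, for 3 genes higher and 2 lower.

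The adenosine list covers transporters, receptors and other enzymes of extracellular nucleotides, with 19 genes, 14 measured and 13 tested. In M176 against WT Tregs 3 rose and 1 fell, where 13.4% of all genes were called higher and 11.3% lower. Ada, the deaminase that removes adenosine, rose 1.85-fold, from 107.5 ± 8.99 to 199.8 ± 26.7 (log2 0.89, SE 0.14, adjusted p = 0.000374), and the call was kept with any array left out. Ada measured 101.2 and 113.9 on the WT Treg arrays and 107.6 and 121.1 on the M354 Treg arrays. These values lay close to the array medians, which limits the size read. Pnp, which acts on the inosine that Ada forms, rose by 0.48 and the ectonucleotide pyrophosphatase Enpp4 by 0.46, and the nucleoside transporter Slc29a2 fell by 0.38. These 3 calls were lost without WT Treg replicate 1 or M176 Treg replicate 1 (adjusted p up to 0.338), and Ada was not called either with the snoRNA covariate (adjusted p = 0.0608).

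M354 and WT Tregs differed in 0 of the 13 adenosine genes at the threshold, with a median of -0.02. Against M176, M354 Tregs had 1 higher, Slc29a2 at 0.35, and 3 lower, namely Enpp4 at -0.83, Ada at -0.80 and the ATP-gated channel P2rx4 at -0.69 (adjusted p = 0.000865, 0.000602 and 0.00111). That of P2rx4 was kept in all alternatives, those of Enpp4 and Ada were lost with the snoRNA covariate (adjusted p = 0.0547 and 0.0793), and that of Slc29a2 was lost in 9 of 20, also without any 1 of the 6 Treg arrays (adjusted p up to 0.181). In transduced cells 0 of 13 were called between any 2 forms. The effect of M176 on Ada differed between the kinds of cell by 0.81 (SE 0.20, adjusted p = 0.0291, and up to 0.176 with an array left out).

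The list of galectins and the glycoproteins and enzymes behind their ligands held 16 genes, 12 measured and 10 tested, and 2 of them carried most of its calls. Gcnt1 encodes an enzyme that branches O-glycans, a step that forms ligands of galectin-1. It measured 83.9 and 121.9 in WT Tregs, 183.6 and 216.4 in M354 Tregs, 42.8 and 46.7 in M176 Tregs and 43.6 to 51.2 on the 6 transduced arrays, so that it was above the array medians in M354 Tregs and on 1 WT Treg array. It rose by 0.98 with M354 (SE 0.16, adjusted p = 0.00257, or 0.0526 at most with an array left out) and fell by 1.18 with M176 against WT Tregs (adjusted p = 8.34e-05), to a level under the array medians. Cd7, a T cell glycoprotein that galectin-1 binds, fell from 1214 ± 98.6 in WT Tregs to 551.9 ± 1.80 in M354 Tregs (log2 -1.13, SE 0.13, adjusted p = 7.84e-05), and it stood at 1376 ± 154 in M176 Tregs. The effect of M354 on Cd7 differed between the kinds of cell by -1.38 (SE 0.18, adjusted p = 0.000676), a call kept in all 20 alternatives, with 1282 ± 71.2 in WT- and 1520 ± 86.4 in M354-transduced cells.

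Partners of Fgl2 and Ecm1 were 8 genes, 6 of them measured and 5 tested. Ecm1 is known to bind alpha-v integrins and to act on the pathway from Klf2, a transcription factor, to S1pr1, the receptor that leads lymphocytes out of lymphoid organs. In M354 against M176 Tregs Klf2 was lower by log2 -1.14 (493.0 ± 128 against 1069 ± 46.7, SE 0.17, adjusted p = 0.000104) and S1pr1 by -0.59 (1831 ± 26.9 against 2757 ± 65.8, SE 0.12, adjusted p = 0.00184), both in all 21 alternatives. The integrin chain Itgav was higher by 0.55, a call lost without M176 Treg replicate 1 (adjusted p = 0.0594) and with the snoRNA covariate (0.302). The protease gene Mmp9, whose product binds Ecm1, was called too, at 94.9 ± 6.75 and 69.9 ± 3.57, under the array medians in both groups, and its call was lost in 5 of 21 alternatives. In M176 against WT Tregs Klf2 rose by 0.68, Mmp9 fell by 0.67 and Itgav fell by 0.47. With the snoRNA covariate these were not called (adjusted p = 0.1, 0.195 and 0.465). Klf2 was also lost without WT Treg replicate 2 or M176 Treg replicate 2 (adjusted p up to 0.0778), and Itgav without either WT Treg array or M176 Treg replicate 1 (up to 0.147). In M354 against WT Tregs 0 of 5 were called. In M354- against WT-transduced cells 1 fell, Mmp9 by 0.88 from 970.1 ± 54.1 to 526.6 ± 39.2 (SE 0.13, adjusted p = 0.00109), and its level in WT Tregs was 111.0 ± 2.002.

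Other suppressive molecules of Tregs were 25 genes, of which 16 were measured and tested. In M176 against WT Tregs 7 fell and 0 rose, with a median of -0.33, and in M354 against M176 Tregs 7 were higher and 0 lower, with a median of 0.31. Of all genes 11.3% were called lower in the former comparison and 12.7% higher in the latter. Gzmb, a cytotoxic protease, was at 355.2 ± 88.4 in WT, 439.4 ± 144 in M354 and 50.2 ± 3.72 in M176 Tregs, the last under the array medians. The inhibitory receptor Tigit was at 2081 ± 317, 3063 ± 222 and 793.1 ± 52.6 in the same order, and the opioid precursor Penk at 1732 ± 404, 4775 ± 491 and 958.7 ± 93.9 (SD, n = 2 each). All 3 were called between M354 and M176 in every alternative, with log2 differences of 3.09, 1.95 and 2.32, the first against a level under the medians. Itgb8, an integrin chain that activates TGF-beta, fell by 0.87 in M176 against WT Tregs (adjusted p = 0.000628, or 0.0847 with the snoRNA level as a covariate).

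In M354 against WT Tregs 2 of these 16 rose and 0 fell, where 0.886% of all genes were called higher and 0.919% lower. Penk rose by 1.48 (SE 0.19, limma adjusted p = 0.000247) and Tigit by 0.56 (SE 0.14, limma adjusted p = 0.0447). The call of Tigit was lost with some arrays left out. In M354- against WT-transduced cells 1 rose and 4 fell, where 0.359% of all genes were called higher and 0.976% lower. Tnfrsf9, a receptor of the tumour necrosis factor family, fell by 1.14, from 2296 to 1043 (adjusted p = 0.000395), and Lrrc32 (GARP), which holds latent TGF-beta at the cell surface, by 0.79 (adjusted p = 0.0229, and up to 0.242 with an array left out). Tnfrsf4 fell by 0.69 and the protease gene Gzma rose by 1.06 (adjusted p = 0.0141 for each, up to 0.137 and 0.2 with an array left out). Gzma is itself 1 of the 9 CD8 T and NK cell markers, of which 6 were tested. Of these 2, Gzma included, rose here (median 0.42), beside 0.359% of all genes (median 0.01). The sum of the 9 markers, which includes Gzma, was 5282 and 4405 with WT and 5689 and 6075 with M354 Foxp3. Klrd1, a receptor chain of NK cells, was at 209.1 and 134.2 against 409.9 and 297.9. Cd8a was at 448.5 and 370.8 against 348.2 and 428.4, and Ncr1 and Klrb1c were under the array medians. The part of such cells in the rise of Gzma was not tested. In M176- against WT-transduced cells Tnfrsf9 fell by 0.98 and 15 of 16 were not called.

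**Figure D3:**
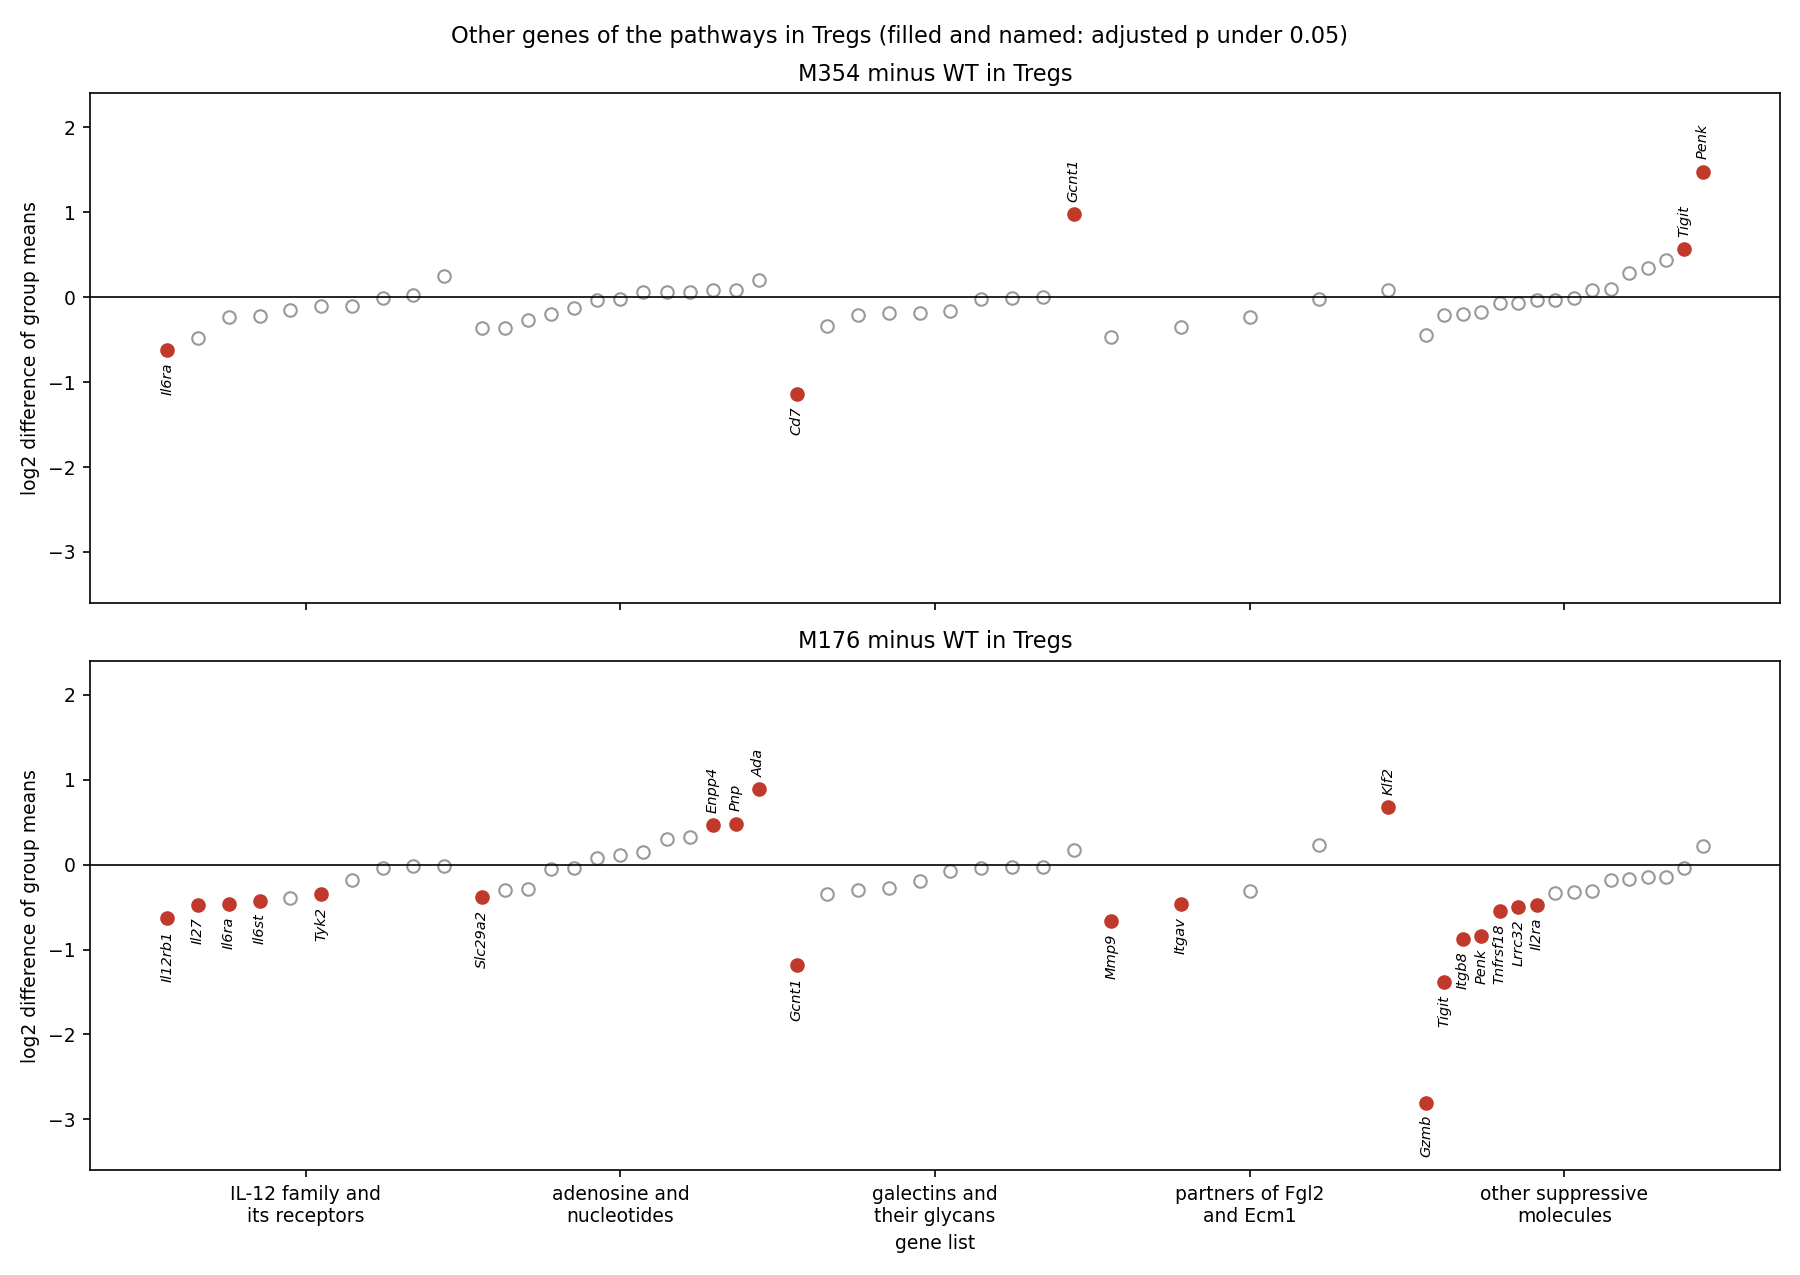
Log2 differences of group means (y axis) in M354 minus WT (top) and M176 minus WT (bottom) Tregs for every tested gene of the 5 lists (x axis, ordered by difference within a list), with called genes filled and named. The upper panel has 5 called genes, with Penk at 1.48 and Cd7 at -1.13, and the lower panel has 20, with Gzmb at -2.80 and Ada at 0.89.

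Many of these list calls were lost when an array was left out. A compared group then has no repeat, so the loss does not show that the array left out carried the difference. Some calls, such as those of Il27 and Il6st in M176 against WT Tregs, were lost whichever array of the compared groups was left out. Of the 20 calls over the 5 lists in M176 against WT Tregs, 7 were kept with each of the 12 arrays left out in turn, and 11 were kept without WT Treg replicate 2. With the snoRNA level as a covariate, which in Tregs ran with the M176 form, 3 were kept, Gcnt1, Gzmb and Tigit. In M354 against M176 Tregs 13 of 20 calls were kept with each array left out and 8 with the snoRNA covariate. In M354 against WT Tregs 2 of 5 were kept with each array left out, Cd7 and Penk, and in M354- against WT-transduced cells 2 of 6, Mmp9 and Tnfrsf9. Between WT Tregs and WT-transduced cells 16 of 21 calls were kept in all alternatives. There Gzmb (355.2 against 5452), Gzma (54.9 against 404.8) and Mmp9 were low in WT Tregs, and Itgb8 (789.3 against 54.9) and Penk (1732 against 277.0) were high.

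Genes whose log2 levels ran most like those of a member over the 12 arrays were listed by Pearson's r, as a description with no p, since the arrays fall into 2 kinds of cell that alone set many genes apart. For Ebi3 these were Gpm6b (r = 0.95), Abhd4 (0.93) and Ercc6l2 (0.92). Gpm6b, a membrane glycoprotein, went from 215.7 ± 10.2 in WT to 558.9 ± 31.8 in M354 and 182.5 ± 11.7 in M176 Tregs and stood at 498.4 to 571.4 on average in the transduced groups, which is the pattern described for Ebi3. For Nt5e they were Synpo (0.98), Actg2 (0.97) and Wls (0.97), the last a carrier of Wnt proteins. The means of Synpo and Actg2 lay under the array medians in M176 Tregs and the transduced groups, that of Synpo also in WT Tregs. Wls was at 844.6 ± 22.1, 751.0 ± 52.4 and 555.6 ± 11.5 in M354, WT and M176 Tregs and at 238.0 ± 31.9, 203.5 ± 2.79 and 183.6 ± 0.909 in WT-, M176- and M354-transduced cells, the order in which Nt5e stood.

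Fgl2 ran with the mitotic genes Ncapg, a condensin subunit, Kif15, a kinesin, and Ckap2l (r = 0.99 for each). Ncapg was at 92.6 ± 38.7 in WT, 135.1 ± 28.0 in M354 and 44.3 ± 8.68 in M176 Tregs and at 354.7 to 560.7 on average in the transduced groups. For each of these mitotic genes the means in WT and M176 Tregs lay under the array medians. Ecm1 ran with Sorcs2 (0.89) and with Jun and Zfp36 (0.87 each), genes of the immediate response to stimulation. Jun was at 1547 ± 75.1 in WT, 1006 ± 124 in M354 and 1689 ± 83.2 in M176 Tregs and at 1400 ± 27.9, 833.1 ± 99.8 and 1043 ± 46.0 with WT, M354 and M176 Foxp3 in transduced cells. Lgals1 ran with Ifitm1, Cenpa and Acpp (0.98 each), all split by kind of cell, and Entpd1 with the receptor gene Tnfrsf8 (0.92), the transcription factor Maf (0.90) and Tet2 (0.90). Maf was at 631.5 ± 18.6 in M176 Tregs, under its levels of 1337 ± 7.02 in WT and 1757 ± 47.8 in M354 Tregs.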

How the data were processed

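Per the submitters' processing notes, the authors made the deposited intensity values with Affymetrix Power Tools by RMA, which corrects background, normalizes by quantiles and summarizes probes. No versions are given in the sources used here. Of 20716 probe sets, 17703 named 1 gene, 1246 several and 1767 none, and each of 16426 genes was read from its brightest probe set by mean log2. Log2 intensities entered a linear model in limma 3.58.1 (R 4.3.3) with a mean for each of 6 groups and 9 contrasts over 12 arrays. The spread of each gene, with 6 residual degrees of freedom, was moderated by empirical Bayes over the tested genes, with 10.89 prior degrees of freedom. Genes above their own array's median (percentile 50) on at least 2 arrays, 8918 in all, were tested, with Benjamini-Hochberg adjustment and a threshold of 0.05. The number of arrays limits the precision.

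The fits were tested on simulated data. The members and gene lists were chosen with earlier results of these data known. The text names all 7 members, the 3 genes most correlated with each tested member, Foxp3, markers, and called list genes, at most 4 per comparison and list by size of change. Replicate numbers did not pair the samples in a consistent way. Over 15 pairs of groups the correlation of replicate differences ran from -0.55 to 0.25, with 3 over 0.1. The lowest were -0.55 for WT- with M354-transduced cells, -0.43 for WT Tregs with WT-transduced cells and -0.33 for M354- with M176-transduced cells. In these pairs the array differences ran in opposite order, which the main fit does not take up. The 21 alternatives were normalization, filter, probe set rule, arrays fitted, replicate block, trended prior, snoRNA covariate and leaving out each of 12 arrays.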

Additional observations from a re-analysis of the deposited data

Results flagged for a closer look

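The effect of M354 against WT Foxp3 differed between Tregs and transduced T cells for 2 of the 6 tested genes, by a test of the difference of both log2 differences. For Ebi3, the shared chain of IL-35 and IL-27, the difference was 1.15 (limma adjusted p = 0.0239), with means of 621.2 against 312.1 in M354 and WT Tregs and 492.3 against 553.6 in M354- and WT-transduced cells. For Nt5e, the enzyme that forms adenosine, it was 1.03 (limma adjusted p = 0.00712), with 2657 against 2007 in Tregs and 792.8 against 1222 in transduced cells. The effect of M354 was not called for Ebi3 in transduced cells (limma adjusted p = 0.809) or for Nt5e in Tregs (0.151). Over the 20 alternatives the difference ran from 0.88 to 1.42 for Ebi3, whose call was not kept in all, and from 0.92 to 1.15 for Nt5e. The transduced cells keep their own Foxp3 gene and were cultured, whereas the Tregs were sorted from the spleen, and the part of either in these differences was not tested.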

How the results depend on the processing

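Of 16 called results of the members, 6 were kept in all alternatives and 0 turned direction. Of 38 that were not called, 6 were called in some alternative and 13 turned sign in some. The count of members called for M354 against WT in Tregs, 1, was 2 with quantile or cyclic loess normalization, the filter at percentile 75, the prior with a trend or the snoRNA covariate, and 0 to 2 with an array left out. For M176 against WT in Tregs, 2, it was 0 with the snoRNA covariate and 0 to 2 with an array left out. With the replicate block it was also 0 (adjusted p = 0.0572 for Fgl2 and 0.052 for Entpd1), and the block changed no other count of members. For M354 against M176 in Tregs, 5, it was 1 with the snoRNA covariate. For M354 against WT in transduced cells, 2, it was 1 with the transduced arrays fitted alone and 0 to 2 with an array left out. With an array left out, the difference between the kinds of cell had 1 to 2 members called for M354 and 0 to 1 for M176. The fit with the snoRNA covariate had wider errors (SE 0.41 against 0.24 for Fgl2 in M176 against WT Tregs). In Tregs the snoRNA level ran with the M176 form, while the slope came mainly from the transduced arrays. A call lost in this fit does not tell whether the level or the form carried the difference. The cause of the other changes was not tested. A fit of one kind of cell alone gives no value for comparisons across them. Without the filter, Il12a was called for M176 against WT in Tregs (-0.45, adjusted p = 0.0278), M354 against M176 (0.45, adjusted p = 0.0196) and WT Tregs against WT-transduced cells (0.37, adjusted p = 0.049). Its signal lay below the median of every array, which limits these values. Over all genes, the count called moved by over 1.5 times with quantile normalization for M354 against WT in Tregs (161 to 277) and with the snoRNA covariate for M176 against WT (2207 to 363) and M354 against M176 (2747 to 570) in Tregs and the difference in the effect of M176 (488 to 170). For M354 against M176 in transduced cells, 7 became 1 with quantile normalization and 12 with the snoRNA covariate. The filter at percentile 75 tests 4660 genes, with 1572 called for M354 against M176 in Tregs, 1338 (from 2695) for WT Tregs against WT-transduced cells, 76 (from 119), 26 (from 46) and 0 (from 7) for M354 and M176 against WT and each other in transduced cells, and 54 (from 96) for the difference in the effect of M354. With an array left out, the count over all genes lay between 73 (without M354 Treg replicate 1) and 212 for M354 against WT in Tregs, 916 (without M176 Treg replicate 1) and 2386 for M176 against WT, and 1343 (without M176 Treg replicate 1) and 2879 for M354 against M176. In transduced cells it lay between 42 (without M354-transduced replicate 1) and 140 for M354 against WT, 23 (without M176-transduced replicate 2) and 53 for M176 against WT, and 1 (without M354-transduced replicate 1 or M176-transduced replicate 2) and 18 (without either WT-transduced array) for M354 against M176. It was 57 (without M354-transduced replicate 1) to 90 for the difference in the effect of M354, 148 (without M176 Treg replicate 1) to 540 for that of M176 and 1506 (without WT Treg replicate 1) to 2767 for WT Tregs against WT-transduced cells. Further arrays moved such a count by over 1.5 times. Without WT Treg replicate 1 it was 95 for M354 against WT in Tregs, 1418 for M176 against WT and 303 for the difference in the effect of M176, and without WT Treg replicate 2 it was 1438 for M176 against WT and 58 for the difference in the effect of M354. Without M354 Treg replicate 1 it was 1354 for M354 against M176 and 58 for the difference in the effect of M354, and without M354 Treg replicate 2 it was 95 for M354 against WT. Among transduced cells it was 27 for M176 against WT and 1630 for WT Tregs against WT-transduced cells without WT replicate 1, 65 for M354 against WT without WT replicate 2, 4 for M354 against M176 without M354 replicate 2, and 26 for M176 against WT, 2 for M354 against M176 and 183 for the difference in the effect of M176 without M176 replicate 1.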
